A study of Danio rerio with 4 samples.

Results

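The nuclear genes of oxidative phosphorylation are the genes in the cell nucleus that encode proteins of the mitochondrial respiratory chain and the ATP synthase. They were taken from the deposited zebrafish (Danio rerio) table by gene symbol. A gene was a member if its symbol began with nduf, sdha, sdhb, sdhc, sdhd, uqcr, cox4 to cox8, atp5 or cycs, or was cyc1. This gave 100 of the 18105 genes in the table, of which 42 belong to complex I, 9 to complex II, 9 to complex III, 20 to complex IV and 19 to complex V, with cycsb as the cytochrome c gene. By role, 86 of the 100 encode subunits, 11 encode assembly factors, 2 encode inhibitors of the ATP synthase and 1, cox7a2l, is known in mammals as a factor of respiratory supercomplexes. The table's own pathway annotation puts 81 of the 100 in oxidative phosphorylation. The rows COX5B, NDUFB1, NDUFAF8 and COX7A2 are written in capitals and were not matched by the symbol rule.

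In the inner mitochondrial membrane, complexes I and II pass electrons from NADH and succinate to ubiquinone, complex III passes them on to cytochrome c, and complex IV, cytochrome c oxidase, passes them to oxygen. Complexes I, III and IV pump protons, and complex V uses the proton gradient to make ATP. Heart muscle depends on this system for contraction, and in mammals several subunits of complex IV exist as a widely expressed form and a form found in heart and skeletal muscle. Assembly factors help to build a complex but are not part of the finished enzyme.

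RNA was sequenced from ventricular cardiomyocytes of adult zebrafish hearts that had been sorted by fluorescence, with 2 libraries in each of 2 groups. Cells positive for tp1:EGFP+/myl7:DsRed2-NLS+, called tp1:EGFP+ here, were 2000 per the series' design text and carried 2 transgenes: EGFP under tp1, a Notch-responsive element, and a nuclear red fluorescent protein under myl7, a cardiomyocyte promoter. The myl7:EGFP+ cells were 7000 and carried EGFP under the same cardiomyocyte promoter. The tp1:EGFP+ cells are thus cardiomyocytes with reporter activity, and the myl7:EGFP+ cells are cardiomyocytes in general, which can include reporter-active cells. The series title places the comparison in the study of differences among cardiomyocytes. The labels do not say whether the libraries of a group came from separate animals, whether animals were pooled, or whether libraries with the same number shared a sort. The p-values between the groups therefore measure the spread between these libraries, which may be technical.

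The normalized values summed to 1660511 and 2041552 in replicates 1 and 2 of tp1:EGFP+, and to 1552636 and 2130733 in replicates 1 and 2 of myl7:EGFP+. In both replicate 2 columns low values fell on multiples of the value of 1 read, 2.98 in tp1:EGFP+ and 3.11 in myl7:EGFP+, which puts their depth at about 686000 reads each. In both replicate 1 columns every whole number up to 60 occurred, so 1 read was worth less than 1 and depth exceeded the column total, but could not be read more closely. The replicate number thus moves with depth. Among the 14 tested cardiomyocyte marker rows, actc1a holds 2. Of these 14, 0 passed the limma test described below in either direction (1, ryr2b, with an unadjusted p under 0.05). Their median standard error (SE) was 1.22, against 0.48 to 0.54 for the marker lists of other cell types, so 0 calls does not show equal levels. At both replicate numbers 3 of the 14 were higher in tp1:EGFP+ and 2 lower. The values of ryr2b were 1150 and 1040 in tp1:EGFP+ against 2697 and 2832 in myl7:EGFP+. Summed values of the list, in which ttn.1 and ttn.2 weigh heavily, were 44130 and 80791 in tp1:EGFP+ against 44908 and 95781 in myl7:EGFP+. Of the listed genes, myl4 was at 0 or 1 in every library, and vmhc matched no row by symbol. Some markers of other cell types passed. In tp1:EGFP+, 5 of 6 markers of mural and smooth muscle were higher (summed values 3313 and 5741, against 1168 and 2054 in myl7:EGFP+). Of 7 erythrocyte marker rows 6 were higher in tp1:EGFP+ (234 and 432, against 28 and 22), whereas 7 of 9 endothelial markers were lower and 1 higher (122 and 102, against 776 and 486). Of the 2 leukocyte markers tested both were lower in tp1:EGFP+, with sums of 3 and 6 against 53 and 77, and the defining genes ptprc, coro1a and mpeg1.1 were at 0 in all 4 libraries. Of 4 epicardial and fibroblast markers 1, pdgfra, was higher in tp1:EGFP+, with list sums of 147 and 147 against 142 and 136. The part of these cell types in the results below was not tested, and in sorted bulk RNA fewer cells of a type and less RNA per cell cannot be told apart.

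The question for these genes was whether cardiomyocytes with tp1 reporter activity express the oxidative machinery at another level than cardiomyocytes in general. With both libraries of each group in the limma fit, 1 of the 98 tested members passed an adjusted p of 0.05, which was lower in tp1:EGFP+, and 0 were higher. Over all 9921 tested genes 34.1% passed, 16.1% higher and 18.0% lower. At an unadjusted p under 0.05 there were 3 members, ndufaf2, ndufaf3 and cox8a. The members' median difference was 0.06 on the log2(value + 1) scale, against 0.01 for all tested genes. The SE was wide, with a median of 0.80 for the members and 0.45 for all tested genes, so differences of moderate size could not be called. This fit has no replicate term, so its SE includes the difference between replicates 1 and 2, given below. With a replicate block in the fit, 8 of the 98 members were called (8.16%), against 57.7% of all genes. The labels do not say that equal replicate numbers mark a shared sort. The members ndufs1, a core subunit gene of complex I, and sdhaf1 were not tested, because their mean over the 4 libraries was below 10. Their values were 1 and 0 in tp1:EGFP+ against 2 and 0 in myl7:EGFP+ for ndufs1, and 3 and 0 against 1 and 0 for sdhaf1. Both overlap another gene in the annotation, as do 15 of the 100 members, and reads in a shared stretch may not have been counted for either gene.

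The member that fell was ndufaf2, which encodes an assembly factor of complex I in mammals and lies on the minus strand at chr8:16732834-16738204 (GRCz11). It had values of 45 and 36 in tp1:EGFP+ against 93 and 87 in myl7:EGFP+, or 40.5 ± 6.36 against 90 ± 4.24 (SD, n = 2 each). The groups did not overlap, and the log2 difference was -1.14 ± 0.32 (SE, limma adjusted p = 0.0483). The call lay close to the threshold. Leaving out any 1 of the 4 libraries gave log2 differences of -1.30 to -0.98.

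Set against each other within a replicate number, the groups gave small differences that turned round between the numbers. Within replicate 1, 84 of the 98 tested members were higher in tp1:EGFP+, with a median log2 difference of 0.29 (quartiles 0.15 and 0.37). Within replicate 2, 78 of the 98 were lower in tp1:EGFP+, with a median of -0.19 (quartiles -0.35 and -0.05). These are values of 1 library against 1 library, with no test. Member by member, 64 of the 98 (65.3%) were higher in tp1:EGFP+ in replicate 1 and lower in replicate 2, and 0 the other way round. A further 19 were higher in both and 14 lower in both, and ndufs5 was equal at 516 in replicate 2. Over all 9921 tested genes the turn from higher to lower was found in 869 (8.76%), while 4258 were higher in both and 4152 lower in both. Nearer to the members were cytosolic ribosomal protein genes, of which 40 of 74 (54.1%) turned. So were cardiomyocyte marker rows, with 8 of 14 (57.1%), and genes of the citric acid cycle list, with 10 of 20 (50%). The 293 other genes with a mean of at least 1000 had medians of 0.28 in replicate 1 and -0.20 in replicate 2. The 24 members at that level had 0.36 and -0.11, so there the course was not particular to the members. At a mean of 300 to 1000, where 56 members lie, the 1135 other genes had 0.19 and -0.02, against 0.28 and -0.21 for the members. Large differences were few. In replicate 1, 0 members were more than 2-fold higher and 1 more than 2-fold lower in tp1:EGFP+, against 22.9% and 25.2% of all genes. In replicate 2 there were 2 and 3 members, against 24.3% and 26.3%. These shares are not matched for level, since 6234 other genes but 9 members had a mean of 10 to 100. The interquartile range of those 6234 genes was 2.89 in replicate 1 and 3.01 in replicate 2. At a mean of 300 to 1000 it was 0.78 and 1.04 for other genes and 0.17 and 0.25 for members.

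**Figure D1:**
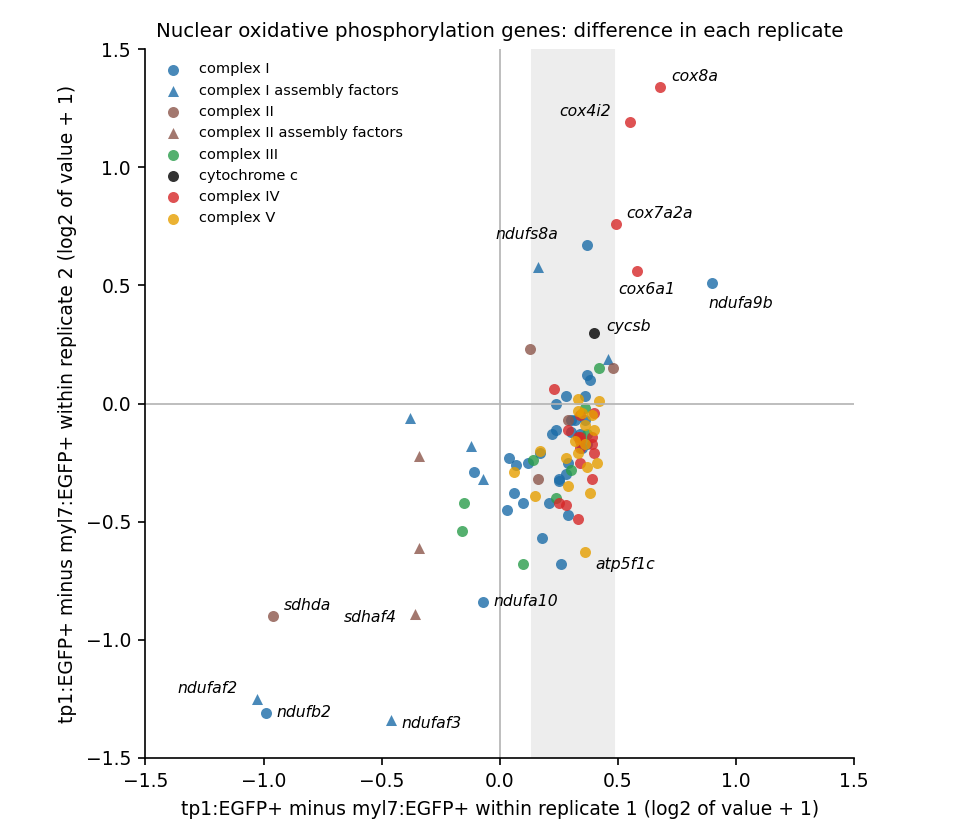
Each point is 1 of the 98 tested members, with the log2(value + 1) difference tp1:EGFP+ minus myl7:EGFP+ within replicate 1 on the x axis and within replicate 2 on the y axis, coloured by complex, with triangles for assembly factors and a grey band for tp1:EGFP+ to myl7:EGFP+ ratios of 1.1 to 1.4 in replicate 1. Most members stand in a narrow column right of 0 on the x axis and below 0 on the y axis, while cox8a, cox4i2, cox7a2a and cox6a1 stand above it and ndufb2, ndufaf2, ndufaf3 and sdhda to its lower left.

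Within replicate 1 the members lay close together. The ratio of tp1:EGFP+ to myl7:EGFP+ had a median of 1.23, and 70 of the 98 members lay between 1.1 and 1.4, a range chosen after the values were seen, against 1297 of 9921 tested genes (13.1%). Of the cytosolic ribosomal protein genes 68 of 74 (91.9%) lay there, a higher share than that of the members. In replicate 2 the median ratio was 0.879, and 5 of the 98 lay in that range. Among the 24 members with a mean of at least 1000, the interquartile range of the log2 difference was 0.04 in replicate 1 and 0.27 in replicate 2, whereas it was 0.37 and 0.70 among the 293 other genes at that level. The direction within replicate 1 depended in part on scaling. The median of all tested genes within replicate 1 was 0.07 in the deposited values and -0.12 after trimmed mean of M values (TMM) scaling. The members' median was then 0.11, 68 in place of 84 members were higher in tp1:EGFP+ in replicate 1, and 51 in place of 64 turned. With quantile scaling 42 turned and with a common total 52, and the medians kept their signs under all 3 scalings, at 0.11 to 0.20 in replicate 1 and -0.19 to -0.07 in replicate 2.

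Complex I, which takes electrons from NADH, had 41 tested members. The median log2 difference was 0.24 within replicate 1 and -0.21 within replicate 2, and 24 of the 41 turned from higher to lower. Among its subunit genes with a high mean normalized value, which is not per length, was ndufv1, which encodes the NADH-binding flavoprotein. The values of ndufv1 were 1065 and 1550 in tp1:EGFP+ against 829 and 1523 in myl7:EGFP+. The groups overlapped, since the replicate 2 value of each group lay above the replicate 1 value of the other.

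A few accessory and core subunits of complex I stood apart from that pattern. The accessory subunit gene ndufb2 had values of 195 and 399 in tp1:EGFP+ against 389 and 989 in myl7:EGFP+. It was lower in tp1:EGFP+ at both replicate numbers, with log2 differences of -0.99 and -1.31, but with an SE of 0.59 around the difference of -1.15 it did not pass the limma test (adjusted p = 0.198). ndufa9b, a paralogue of the accessory subunit gene ndufa9a, had 27 and 9 against 14 and 6. Chosen after their values were seen, ndufs8a, which encodes an iron-sulfur subunit, had 841 and 1594 against 650 and 1001, and the accessory subunit gene ndufa10 had 537 and 739 against 565 and 1321. Neither passed (limma adjusted p = 0.462 and 0.543).

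Complex II, succinate dehydrogenase, is also an enzyme of the citric acid cycle, and its genes comprise subunits and assembly factors that differed in their course. The median log2 difference over its 8 tested members was -0.10 in replicate 1 and -0.27 in replicate 2, and 2 of the 8 turned from higher to lower. Its 3 tested assembly factors were all lower in tp1:EGFP+ in replicate 1, whereas its 5 subunit genes had medians of 0.16 and -0.07, the signs of the whole set, with 4 of 5 higher in replicate 1. The flavoprotein gene sdha had values of 1467 and 1764 in tp1:EGFP+ against 1202 and 1856 in myl7:EGFP+. The iron-sulfur subunit gene sdhb had 705 and 1442 against 506 and 1300. The membrane anchor gene sdhda had 17 and 21 against 34 and 40, so that its groups did not overlap, with a log2 difference of -0.93 ± 0.43 (SE, limma adjusted p = 0.158). Its paralogue sdhdb had 513 and 951 against 469 and 811. The ratio of sdhda to sdhdb was therefore lower in tp1:EGFP+ at both numbers, by log2 differences of -1.09 and -1.13.

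Complex III, which passes electrons from ubiquinol to cytochrome c, had medians of 0.24 and -0.28 within replicates 1 and 2, and 6 of its 9 members turned. The Rieske iron-sulfur protein gene uqcrfs1 had values of 1564 and 2587 in tp1:EGFP+ against 1170 and 2335 in myl7:EGFP+. The core protein gene uqcrc1 had 1117 and 2900 against 870 and 2947. uqcrc2a, a gene for the other core protein, had 636 and 784 against 713 and 1144 and was lower in tp1:EGFP+ at both numbers. The log2 difference of uqcrc2a was -0.35 ± 0.39 (SE, limma adjusted p = 0.53). The electron carrier between complexes III and IV, cytochrome c, is represented by cycsb at chr6:10910589-10912424 (GRCz11, minus strand). It had 569 and 1913 against 430 and 1554, higher in tp1:EGFP+ by 0.40 in replicate 1 and 0.30 in replicate 2. The libraries of the groups interleaved, and the pooled log2 difference was 0.35 ± 0.88 (SE, limma adjusted p = 0.799).

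Complex V, the ATP synthase, showed the turn in 17 of its 19 members, with medians of 0.35 in replicate 1 and -0.20 in replicate 2. The catalytic beta subunit gene atp5f1b, which had the highest normalized value of all members in both replicate 2 libraries, had values of 1227 and 4306 in tp1:EGFP+ against 953 and 4853 in myl7:EGFP+. The alpha subunit gene atp5fa1 had 1263 and 2861 against 973 and 3728. The gamma subunit gene atp5f1c, part of the rotating stalk, had 713 and 1800 against 556 and 2786, the most negative mean difference in the complex. At the other end atp5pb, a gene of the peripheral stalk, had 655 and 2345 against 490 and 2322. In each of these 4 genes the 2 libraries of a group lay farther apart than the group means did. The inhibitor genes, whose product in mammals blocks ATP hydrolysis, gave 246 and 516 against 222 and 675 for atp5if1a and 373 and 1702 against 289 and 2055 for atp5if1b.

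Complex IV had 20 tested members, all higher in tp1:EGFP+ in replicate 1, with a median of 0.34, and 15 of them were lower in replicate 2, with a median of -0.14. With quantile scaling the replicate 2 median turned to 0.01, with 9 lower. Most of its subunit genes followed 1 course. Those with the highest mean normalized value were ndufa4, with values of 736 and 1928 in tp1:EGFP+ against 557 and 1980 in myl7:EGFP+, and cox4i1l, with 475 and 1574 against 377 and 2217. ndufa4 keeps its name from complex I, but in mammals its product is a subunit of complex IV. The reference names give this row as ndufa4b and its paralogue ndufa4l as NDUFA4, so which of them matches the mammalian gene is uncertain. ndufa4l had 411 and 1770 against 313 and 1949. The genes cox5aa, cox5ab, cox6b1, cox6b2, cox6c and cox7a2l had values of 240 to 418 and 685 to 1612 in replicates 1 and 2 of tp1:EGFP+, against 202 to 329 and 920 to 1772 in myl7:EGFP+. Each was higher in tp1:EGFP+ in replicate 1 and lower in replicate 2.

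The exceptions in complex IV, higher in tp1:EGFP+ at both replicate numbers, were cox8a, cox8b, cox6a1, cox7a2a and cox4i2, and these 5 were higher at both numbers under all 3 other scalings as well. cox8a, named after a widely expressed mammalian form and located at chr21:28496194-28500704 (GRCz11, plus strand), had values of 113 and 158 in tp1:EGFP+ against 70 and 62 in myl7:EGFP+. Its groups did not overlap, and the log2 difference of 1.01 ± 0.30 (SE) had a limma adjusted p of 0.0571. Its partner cox8b, named after the heart and muscle form, had 211 and 504 against 180 and 482. The gene cox6a1 had 176 and 212 against 117 and 143, again without overlap, with a log2 difference of 0.57 ± 0.26 (SE, limma adjusted p = 0.149), and it overlaps another annotated gene. Its partner cox6a2 had 368 and 1553 against 279 and 1794. The reference names give cox6a2 as COX6A1, so the assignment of this zebrafish gene to the mammalian muscle form is uncertain.

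The other isoform pairs were cox7a2a with cox7a1 and cox4i2 with cox4i1. cox7a2a had values of 203 and 522 in tp1:EGFP+ against 144 and 308 in myl7:EGFP+, higher at each number by 0.49 and 0.76, though the groups overlapped (limma adjusted p = 0.474). Its partner cox7a1, named after the heart and muscle form, had 322 and 1359 against 263 and 1464. cox4i2, known in mammals from lung and from responses to low oxygen, had 18 and 15 against 12 and 6. The groups did not overlap for cox4i2, but its replicate 2 values stand for a few reads. cox4i1, the widely expressed mammalian form, had 443 and 1711 against 350 and 1949. In all 4 pairs the gene named here before its partner was higher relative to that partner in tp1:EGFP+ at both replicate numbers. The partners cox8b, cox6a2 and cox7a1 are named after heart or muscle forms. Relative to the first gene of its pair, each was lower in tp1:EGFP+ than in myl7:EGFP+. For cox6a2 that assignment is uncertain, as given above. The pair of cox4i2 and cox4i1 holds no gene named after a heart or muscle form, so it does not bear on this. The log2 ratio differences within replicates 1 and 2 were 0.46 and 1.27 for cox8a to cox8b, 0.19 and 0.77 for cox6a1 to cox6a2, 0.20 and 0.87 for cox7a2a to cox7a1, and 0.21 and 1.38 for cox4i2 to cox4i1. In each pair the ratios of the 2 groups overlapped, and in both groups they were lower in replicate 2. The ratio of cox8a to cox8b was 0.538 and 0.315 in tp1:EGFP+ against 0.392 and 0.13 in myl7:EGFP+. For cox6a1 to cox6a2 it was 0.48 and 0.137 against 0.421 and 0.0802. With 2 libraries against 2, an exact two-sided permutation test cannot give a p below 0.333, so these ratios were not tested. A ratio shows unequal levels and does not say which gene of a pair differs.

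**Figure D2:**
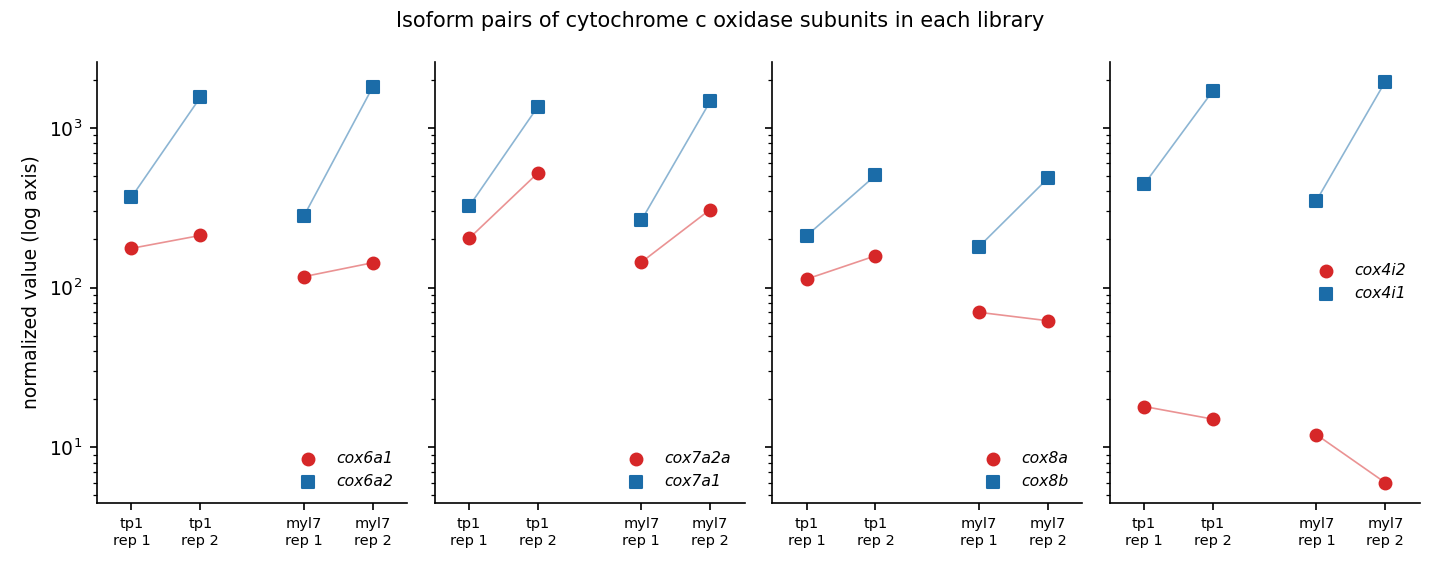
Normalized values on a log axis of 4 pairs of complex IV genes in each library, tp1:EGFP+ replicates 1 and 2 on the left of each panel and myl7:EGFP+ on the right, with red circles for cox6a1, cox7a2a, cox8a and cox4i2, blue squares for their partners, and lines that join the 2 libraries of a group. The partners are several times higher in replicate 2 than in replicate 1 of the same group, or about 2.39 and 2.68 times for cox8b, while cox6a1, cox8a and cox4i2 differ less between replicates and lie higher in tp1:EGFP+ than in myl7:EGFP+.

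The mean of the 2 log2 ratio differences was 0.48 to 0.86 over these 4 pairs, each in the order given. In 9 of the other 11 paralogue pairs examined it lay between -0.26 and 0.17. The remaining pairs were sdhda to sdhdb, given above, and ndufa9b to ndufa9a, at 0.78 and 0.76 with low values of ndufa9b. For cox4i1l to cox4i1 they were -0.01 and -0.31, and for atp5mc3a to atp5mc3b, genes of the rotor ring of complex V, 0.02 and -0.06. Whether reads of near-identical copies were split between paralogues is not given in the sources used here, so such ratios are uncertain. The capital-letter row COX5B, outside the rule, had values of 347 and 1061 in tp1:EGFP+ against 245 and 731 in myl7:EGFP+. The member cox5b2, named for the same subunit, had 341 and 1398 against 269 and 1558.

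The assembly factors among the members were mostly lower in tp1:EGFP+ at both replicate numbers. Of the 10 tested, 8 were lower in tp1:EGFP+ at both replicate numbers, 2 (ndufaf1 and ndufaf6) were higher at both, and 0 turned, while 7 or 8 were lower at both under the other 3 scalings and ndufaf6 was lower in replicate 1 with TMM. Their median log2 differences were -0.34 and -0.27. For the 85 tested subunits these were 0.32 and -0.17, with 61 that turned. The 45 tested assembly and cofactor genes outside the rule went the other way, with medians of 0.17 and 0.22. Of these, 25 were higher in tp1:EGFP+ at both numbers and 13 lower at both. Over all tested genes 41.9% were lower at both. Besides ndufaf2, the complex I factor ndufaf3, chosen after its values were seen, had 224 and 164 in tp1:EGFP+ against 308 and 417 in myl7:EGFP+, without overlap and with a log2 difference of -0.90 ± 0.30 (SE, limma adjusted p = 0.0762). It overlaps another annotated gene. The complex II factor sdhaf3 had 79 and 48 against 100 and 56. The row NDUFAF8, outside the rule and named for a complex I assembly factor in humans, had 13 and 36 against 42 and 84. In all, the groups did not overlap for 4 members that were higher in tp1:EGFP+ (cox4i2, cox6a1, cox8a and ndufaf6) and 4 that were lower (ndufaf2, ndufaf3, sdhaf2 and sdhda), or 4.08% of members each way, against 34.1% and 34.8% of all tested genes. A large difference between the libraries of a group, as most members had (given below), makes overlap more likely. The low share of members therefore does not show equal levels in the groups.

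Between the 2 libraries of a group, most of these genes were higher in replicate 2. As replicate 2 minus replicate 1, the members' median log2 difference was 1.36 in tp1:EGFP+ and 1.84 in myl7:EGFP+, against -0.11 and -0.14 for all tested genes. With a common total per library these were 1.06 and 1.38 for the members and -0.41 and -0.58 for all tested genes. The members made up 4.97% of the total in replicate 2 and 2.35% in replicate 1 of tp1:EGFP+, and 5.41% and 2.08% in myl7:EGFP+. In a limma fit with group as a term, 79 of 98 members were higher in replicate 2 and 0 lower at an adjusted p under 0.05, against 6.71% higher and 4.74% lower over all genes, and 86 members had an unadjusted p under 0.05 in either direction. The fit has 1 residual degree of freedom per gene, and the calls rest on the spread pooled over genes. It is the same model as the replicate block above, so it too pairs libraries by number. Its p-values measure how far the replicate difference varied between the 2 groups, not the spread between libraries of a group. With no pooling trend, or with no filter on low values, 0 genes of the whole table passed, while 83 and 80 members still had an unadjusted p under 0.05. In both groups 88 of the 98 members were higher in replicate 2, and 69 were more than 2-fold higher in both, against 3.81% of all genes. Depth differed between the replicate numbers, as given above, and its part in this difference was not tested. The sources name 2 library kits and 2 RNA extraction kits without tying them to libraries, so whether kits also differed between the replicate numbers is not given in the sources used here.

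**Figure D3:**
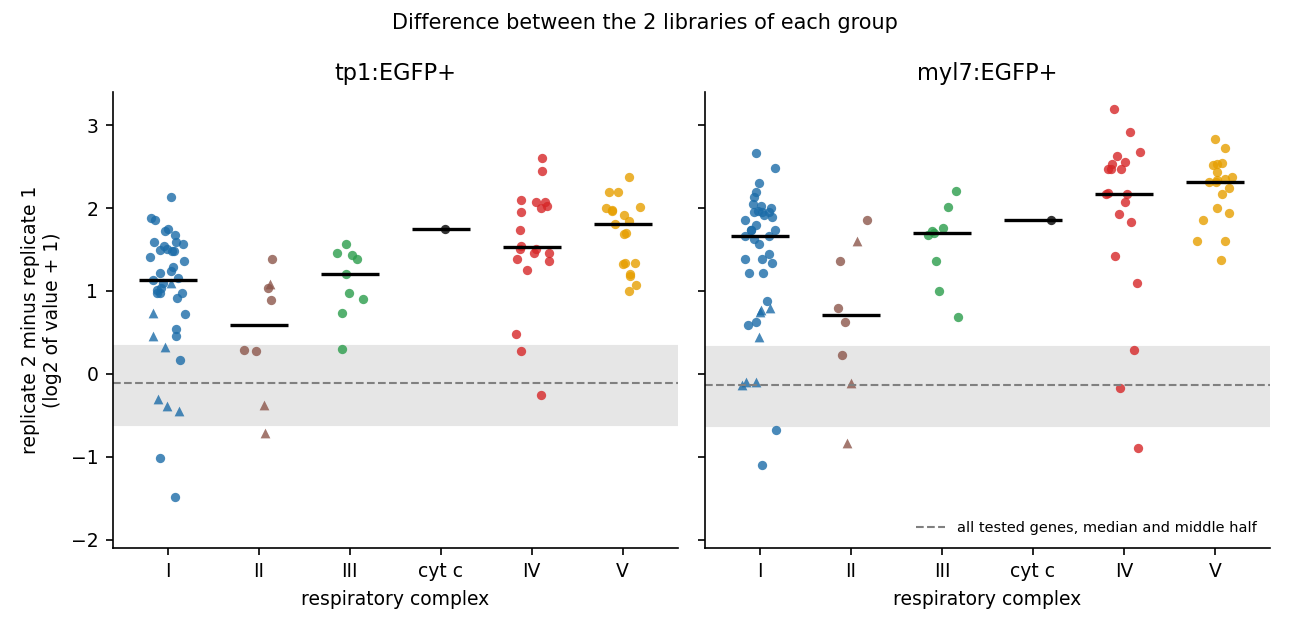
Difference between replicate 2 and replicate 1 in log2(value + 1) for the tested members of each complex, in tp1:EGFP+ on the left and myl7:EGFP+ on the right, with a black line at each median, triangles for assembly factors, and a dashed line and grey band for the median and interquartile range of all tested genes. Complex V has the highest medians of the 5 complexes, 1.81 and 2.32, and complex II the lowest, 0.59 and 0.71.

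The median replicate difference of complex V was the highest and that of complex II the lowest. Complex V had medians of 1.81 in tp1:EGFP+ and 2.32 in myl7:EGFP+, and all 19 members were called higher in replicate 2. Complex IV followed with 1.53 and 2.18 and 17 of 20 called, complex III with 1.20 and 1.70 and 7 of 9, complex I with 1.13 and 1.66 and 31 of 41, and complex II with 0.59 and 0.71 and 4 of 8. cycsb was called as well, at 1.75 and 1.85. The median of the 10 tested assembly factors was 0.00 in tp1:EGFP+ and 0.17 in myl7:EGFP+, or -0.29 and -0.28 with a common total, with 2 called. The order of complexes I and III depended on these factors, since the 34 tested subunits of complex I alone had medians of 1.27 and 1.74, with 30 called. The 5 subunits of complex II alone had medians of 0.89 and 0.79, with 3 called, still the lowest but nearer to the other complexes. With quantile scaling, all members of complex I had medians of 1.00 and 1.19 and those of complex III 0.65 and 0.83. Differences between complexes were not tested.

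The largest replicate differences were those of cox7b, cox7c and atp5md, which encode small subunits. The complex IV gene cox7b had values of 295 and 1794 in replicates 1 and 2 of tp1:EGFP+, and 233 and 2130 in myl7:EGFP+, so replicate 2 was 6.08 and 9.14 times higher (log2 difference 2.89 ± 0.21 SE, limma adjusted p = 0.000154). cox7c had 229 and 1252 in tp1:EGFP+ and 181 and 1377 in myl7:EGFP+. The small complex V gene atp5md had 182 and 945 in tp1:EGFP+ and 145 and 967 in myl7:EGFP+. At the other end stood ndufa9b, given above, ndufb11, with 80 and 39 in tp1:EGFP+ and 76 and 47 in myl7:EGFP+, and sdhaf3. These were lower in replicate 2 in both groups but did not pass (limma adjusted p = 0.189, 0.0918 and 0.0872).

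**Figure D4:**
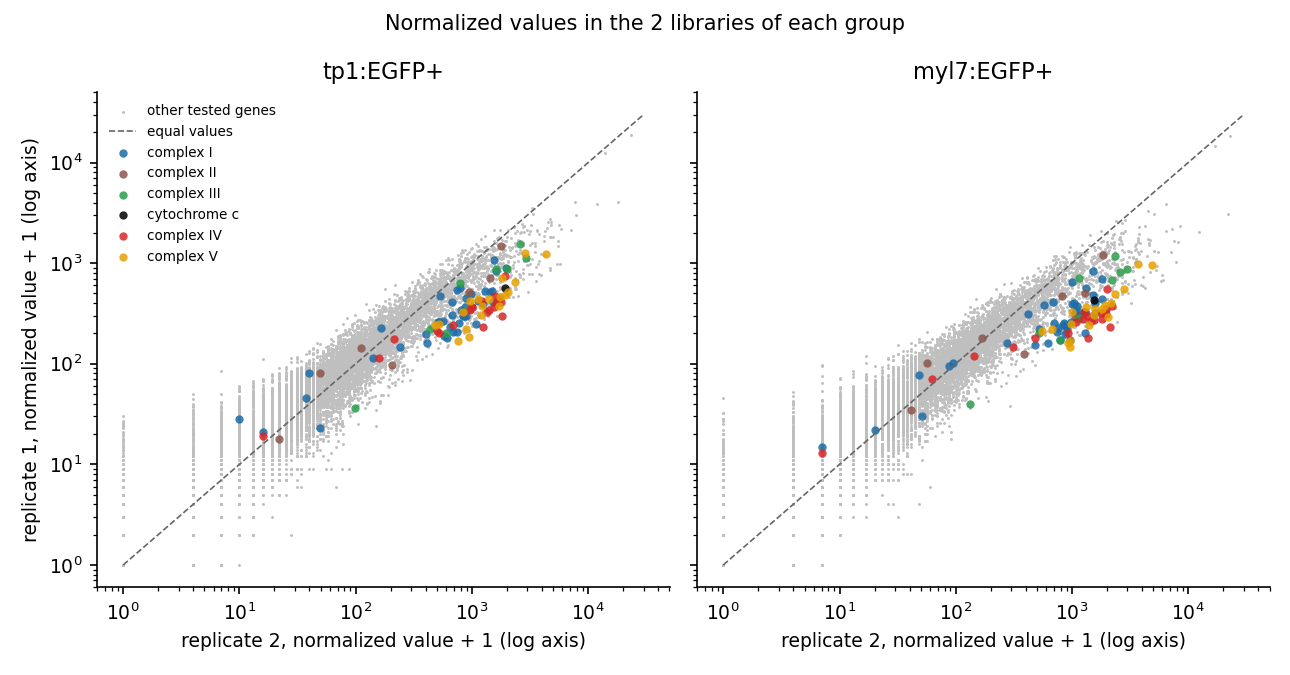
Normalized value + 1 in replicate 2 (x, log axis) against replicate 1 (y, log axis) for the 98 members, coloured by complex, over the other tested genes in grey, in tp1:EGFP+ on the left and myl7:EGFP+ on the right, with a dashed line of equal values. Most members lie below the line, among the genes highest in replicate 2 relative to replicate 1, and the vertical grey stripes at low replicate 2 values are the steps of single reads.

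At the same level, members and other genes had these shares. Of members with a mean of 300 to 1000, 53 of 56 (94.6%) were called higher in replicate 2, against 243 of 1135 other genes at that level (21.4%). Of those with a mean of at least 1000 the numbers were 21 of 24 (87.5%) and 114 of 293 (38.9%). The 9 members with a mean below 100 had medians of -0.31 in tp1:EGFP+ and -0.14 in myl7:EGFP+. The 74 genes of the cytosolic ribosome had median replicate differences of 1.71 in tp1:EGFP+ and 2.03 in myl7:EGFP+, with 71 called, and medians of 0.33 and -0.03 between groups within replicates 1 and 2. The 74 tested mitochondrial ribosomal protein genes had median replicate differences of 0.28 and 0.34, with 13 called higher and 3 lower. The cardiomyocyte marker rows had median replicate differences of 1.45 and 2.15, with 8 of 14 called. For the myosin light chain gene myl7 the values in replicates 1 and 2 were 765 and 3916 in tp1:EGFP+ and 565 and 4206 in myl7:EGFP+.

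The 4 lists of genes around the respiratory chain were set beside the 16.1% of all tested genes called higher and the 18.0% called lower. In the citric acid cycle list, which also holds genes of cytosolic enzymes, 2 of 20 tested genes were lower in tp1:EGFP+ and 0 higher (2 with an unadjusted p under 0.05). suclg2, a subunit of GTP-forming succinyl-CoA ligase in mammals, had values of 205 and 212 in tp1:EGFP+ against 398 and 485 in myl7:EGFP+ (log2 difference -1.07 ± 0.24 SE, limma adjusted p = 0.028). aco1, in mammals the cytosolic aconitase, had 1 and 0 against 40 and 12. Of 45 tested assembly and cofactor genes outside the rule, 3 were higher and 1 lower. coq2 and coq6, both enzymes of ubiquinone synthesis, had 190 and 167 against 67 and 50, and 484 and 474 against 264 and 258. nubpl, which in humans delivers iron-sulfur clusters to complex I, had 155 and 176 against 33 and 59, while coq8ab, a ubiquinone synthesis gene, had 4 and 0 against 56 and 47. For each of these 4 genes the groups did not overlap, but they were named because they were called, which favours this. Over all tested genes the groups did not overlap for 34.1% that were higher and 34.8% that were lower.

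Among 16 regulators of mitochondrial biogenesis 2 were higher and 2 lower in tp1:EGFP+. esrra encodes an orphan nuclear receptor that in mammals activates genes of oxidative metabolism. It had values of 171 and 158 in tp1:EGFP+ against 598 and 628 in myl7:EGFP+ (log2 difference -1.89 ± 0.23 SE, limma adjusted p = 0.00513). mtif2, a mitochondrial translation initiation factor, had 2 and 6 against 89 and 75. gabpb1, a subunit of a transcription factor that in mammals acts on respiratory chain genes, had 64 and 54 against 14 and 9, and the mitochondrial RNA polymerase gene polrmt had 53 and 30 against 4 and 9. Of 13 genes of ATP and phosphocreatine exchange 1 was higher and 2 lower. The creatine kinase gene ckba had 543 and 715 in tp1:EGFP+ while both libraries of myl7:EGFP+ list it at 0. ucp3, an uncoupling protein gene, had 19 and 12 against 152 and 124, and the muscle creatine kinase gene ckmb had 30 and 27 against 121 and 115. The ADP/ATP carrier gene slc25a5, chosen after its values were seen, had 897 and 4673 against 686 and 6056. It took the same course as most members, higher in tp1:EGFP+ in replicate 1 and lower in replicate 2.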

How the data were processed

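Per the labels' protocols, 1 to 2 ng of total RNA was amplified to full-length cDNA (SMART-Seq v4), and libraries were made with 2 kits. The extraction kit is named as miRNeasy micro in the labels and as RNeasy Micro in the design text. Which kit served which library is not stated. The submitters' processing notes name DESeq2 1.26.0, Subread 1.6.5, featureCounts, STAR 2.6.1d and Trimmomatic 0.39 and the builds danRer11 and GRCz11, with roles and settings not given in the sources used here. For each gene the authors deposited a score, which is a normalized read count rounded to a whole number, in 1 column per library, with 0 other value columns unused. They are not raw counts, so no count model was used.

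The 9921 genes whose mean in the 4 libraries reached 10 were tested on log2(value + 1), which understates changes of low genes, with limma 3.58.1 (R 4.3.3, trend option). P-values were adjusted by Benjamini-Hochberg over all of them, at a threshold of 0.05. Differences are tp1:EGFP+ minus myl7:EGFP+, or replicate 2 minus 1 with group as a term. No transcript lengths were used, so levels are not compared per length between genes. Members were matched by Ensembl ID to reference names (100 of 100, 15 under another symbol). The test and the search for the value of 1 read were also run on simulated data, with the outcome not reported here. For the test, the spread of each simulated library was drawn independently. That leaves out a shift shared by same-numbered libraries, so the simulation does not cover this feature of the data.

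The members and the gene lists were chosen with earlier results of these data known. Genes were named by rule: members called between groups, the 2 most abundant subunits and the extreme members of each complex, isoform sets, the 3 largest and 3 smallest replicate differences, and up to 3 called genes per list with the smallest p. Others are named as chosen after their values were seen, or because a count or pair needed them. Not every gene that this rule names is reported here. Alternatives were pseudocounts of 0.5 and 10, a minimum mean of 50 or none, other scalings (TMM re-implemented, quantile, common total), no trend, a robust fit, a replicate block, subunits only, and each library left out. Python 3.11.15, pandas 2.3.3, numpy 2.4.6 and matplotlib 3.10.9 served for tables and plots.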

Additional observations from a re-analysis of the deposited data

How the results depend on the processing

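Between the groups, the count of members called (1 as reported) was 0 with a minimum mean of 50, with a common total, with no trend and with subunits only, while of all genes 23.9% passed with a minimum mean of 50, 26.4% with a common total and 31.7% with no trend. It was 2 (ndufaf2 and ndufaf3, both lower in tp1:EGFP+) with TMM and with quantile scaling. It was 0 to 0 when each library was left out, a fit in which a lone library is assumed to vary like the other group. Only 4.04% to 6.32% of all genes passed there, against 34.1% with all libraries, so these counts of 0 say little about the members. The members' median (0.06 as reported) then ranged from -0.93 to 0.96, without myl7:EGFP+ replicate 1 and replicate 2, and was 0.73 and -0.70 without tp1:EGFP+ replicates 1 and 2. The log2 difference of cox7a2a ranged from -0.05, a turn, without tp1:EGFP+ replicate 2 to 1.3 without its replicate 1. For ndufaf2 the adjusted p by limma was 0.0622 with a minimum mean of 50, 0.151 with a common total and 0.0569 with no trend. The medians within replicates 1 and 2 moved by less than the members' spread under all 7 alternatives, with the shift under TMM given above. The labels do not say that equal replicate numbers mark a shared sort, and 2 pairs cannot show it. Across genes, the deviations of same-numbered libraries correlated with r = 0.442 (9921 genes) and 0.951 (98 members). With a replicate block, 8 members were called, 3 higher (cox6a1, cox7a2a and cox8a) and 5 lower (ndufaf2, ndufaf3, ndufb2, sdhaf2 and sdhaf4), or 8.16% against 57.7% of all genes. For the replicate difference, 0 members were called with no filter and 0 with no trend, against 79 as reported and 76 to 83 under the other alternatives, 3 of them lower with a common total (ndufb11, sdhaf2 and sdhaf3). Its median (1.61) was 1.24 with quantile scaling and 1.23 with a common total. Without 1 library that fit has no residual degrees of freedom, so only the values within each group are given. Depth limits cox4i2, ndufa9b and sdhda in replicate 2, where a value is a few reads.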
